A study of Mus musculus with 9 samples.

Results

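The proteasome genes were taken as all entries of the expression table whose symbol is Psm followed by a, b, c, d, e or g and a number. They had to hold at least 10 counts summed over the 9 libraries. This gave 48 of the 26770 genes in the table. Psmb11, which encodes the thymus-specific catalytic subunit, had 4 counts in all and was left out. The immunoproteasome set held 5 of the 48 genes, Psmb8, Psmb9, Psmb10, Psme1 and Psme2, and the other 43 were set against it. All 48 passed the filter on low counts and were among the 15447 genes tested.

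The proteasome degrades ubiquitin-tagged proteins inside a barrel-shaped core particle of stacked alpha and beta rings, the 20S particle, and only 3 of its beta subunits cut peptide bonds. Interferons and inflammatory signals induce alternative catalytic subunits that replace the constitutive ones in newly built particles, and they induce the PA28 activator, a ring that opens the core. The resulting immunoproteasome is prominent in leukocytes, where it supplies peptides for presentation on MHC class I. The 19S cap, with a ring of ATPases and a lid, recognises and unfolds the tagged proteins.

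RNA sequencing was done on monocytes from the spleens of wild-type mice, in 3 groups of 3 libraries. The LPS with octanal group was primed with a low dose of LPS, a bacterial cell wall component sensed by Toll-like receptor 4, and then received octanal at 20 µM, an aldehyde that is an odorant ligand of the receptor Olfr2 named in the series title. The LPS group received LPS at 40 ng/ml for 5 hours, and the untreated group received the solvent DMSO. The octanal labels read 18, 19 and 20 hours for replicates 1 to 3 and the DMSO labels read dilutions of 1 in 1000, 1001 and 1002, while the series text gives a single 18 hours and 1 in 1000, and replicates were treated as alike. DMSO is named for the untreated cells only, and no culture time is given for the LPS cells that matches the octanal period. In the comparisons of LPS with octanal, octanal, a longer culture and the solvent therefore cannot be told apart. In LPS against untreated, LPS, the solvent and any difference in culture time cannot be told apart either. The labels leave unstated whether the replicates were separate mice or separate cultures. The p-values therefore cover only how much these 9 libraries varied, which may be technical.

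Total counts lay between 29594291 and 38388421 per library, and proteasome genes took 0.366 to 0.478% of them. The label of monocytes was checked against marker genes, none of which was at 0 in every library. Levels are given in CPM, counts scaled to the library total after TMM normalization. The summed level of 10 classical monocyte markers was 5662 to 8401 CPM in LPS with octanal, 2956 to 4126 CPM in LPS and 6191 to 14204 CPM in untreated libraries. Lyz2, Itgam and Cd14, which neutrophils or macrophages also express, made up most of that sum in the octanal libraries, at 2460 to 4284, 1298 to 2045 and 1049 to 1422 CPM. Ly6c2 and Ccr2, the defining markers of classical monocytes, were near 0 in the treated cells and go against the label there. Ly6c2 was at 0.625 to 1.01 CPM in LPS with octanal, 0.387 to 7.90 CPM in LPS and 2.82 to 249 CPM in untreated libraries. Ccr2 was at 0.658 to 2.85 CPM in LPS with octanal, 0.885 to 1.82 CPM in LPS and 4.65 to 30.1 CPM in untreated libraries. Markers of other cells were present as well, and the first LPS and the first octanal library stood apart in interferon-stimulated genes, with values given below. In LPS with octanal libraries the summed markers reached 4445 to 10531 CPM for neutrophils (10 genes), 605 to 902 CPM for T cells (9 genes), 833 to 1011 CPM for macrophages (10 genes), 426 to 928 CPM for dendritic cells, 80.4 to 108 CPM for B cells and 22.0 to 33.8 CPM for NK cells (8 genes each). In LPS libraries these sums were 1319 to 1675 CPM for neutrophils, 990 to 1230 CPM for T cells, 444 to 709 CPM for macrophages, 826 to 928 CPM for dendritic cells, 143 to 193 CPM for B cells and 41.2 to 47.4 CPM for NK cells. Untreated libraries had 11780 to 23506 CPM for neutrophils, 120 to 568 CPM for T cells, 1568 to 2676 CPM for macrophages, 276 to 501 CPM for dendritic cells, 99.4 to 338 CPM for B cells and 6.05 to 23.9 CPM for NK cells. In such bulk samples, fewer cells of a type and less RNA per cell cannot be told apart, and the part of cell composition in the results below was not tested.

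The 48 genes sort by role into 7 alpha subunits, 4 structural and 3 catalytic beta subunits, 3 inducible beta subunits, 2 PA28 subunits, 6 ATPases and 11 other subunits of the 19S cap, 3 assembly chaperones of the cap, 4 assembly chaperones of the core, and 2 other activators. The symbol rule also took in Psma8, a testis-type alpha subunit, and 2 genes that are no subunits: Psmc3ip, a meiotic recombination factor, and Psme2b, a near-identical copy of Psme2. Per length, in the deposited FPKM (fragments scaled by gene length and library size), the 14 constitutive core subunits ranged in the LPS with octanal group from 30.8 FPKM (Psma3) to 135 FPKM (Psmb6), in the LPS group from 29.6 FPKM (Psma2) to 115 FPKM (Psmb6), and in the untreated group from 28.1 FPKM (Psma3) to 121 FPKM (Psmb6), as means of 3 libraries. Assembly chaperones were lower, at 5.02 FPKM (Psmd9) to 26.3 FPKM (Psmd10) in LPS with octanal, 5.51 FPKM (Psmd9) to 21.3 FPKM (Psmd10) in LPS and 6.60 FPKM (Psmd9) to 22.3 FPKM (Psmd10) in untreated cells. The PA28 gene Psme2 ranked first of the 48 in FPKM in the LPS with octanal and LPS groups and the third in the untreated group, and Psme1 ranked 11 in LPS with octanal, 2 in LPS and 11 in untreated cells.

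Psmb8 and Psmb9 are neighbours in the genome, as are Psme1 and Psme2, and Psmb10 lies on another chromosome. On GRCm38 with GENCODE M21 annotation, Psmb8 lies at chr17:34197721-34201454 on the plus strand and Psmb9 beside it at chr17:34181987-34187764 on the minus strand, overlapping the peptide transporter gene Tap1 on the other strand. Psmb10 lies at chr8:105935735-105938444 on the minus strand, Psme1 at chr14:55578123-55581529 on the plus strand and Psme2 at chr14:55587441-55591113 on the minus strand. The use of strand in counting is not given in the sources used here, so reads of Psmb9 and Tap1, of Psme1 and Emc9, and of Psmb8 and Psmb10 and the antisense genes Gm20496 and Gm16156 could not be told apart where they overlap.

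The promoters of Psmb8 and Psme1, which rose in LPS against untreated, and of Psmb10, which did not pass the test, are shown. The 5 immunoproteasome promoters were searched because the inducible genes are textbook targets of interferon-activated factors, and these 3 were picked for display. The sequences are RefSeq's for GRCm38.p6, from 250 bases before to 50 bases after RefSeq's gene start, and capitals mark a match to an interferon motif, on either strand. The motifs were the core of the interferon-stimulated response element (ISRE), which is GAAA, any 2 bases and GAAA, and the gamma-activated site, TTCNNNGAA. The Psmb8 window is chr17:34197945-34198244 on the plus strand, the Psme1 window is chr14:55578244-55578543 on the plus strand and the Psmb10 window is chr8:105938343-105938642 on the minus strand.
Psmb8: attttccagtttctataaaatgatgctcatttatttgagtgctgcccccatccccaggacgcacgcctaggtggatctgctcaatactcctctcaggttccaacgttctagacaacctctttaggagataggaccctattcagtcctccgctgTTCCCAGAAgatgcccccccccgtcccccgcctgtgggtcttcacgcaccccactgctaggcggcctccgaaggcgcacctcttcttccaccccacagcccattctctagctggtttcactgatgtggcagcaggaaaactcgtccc
Psme1: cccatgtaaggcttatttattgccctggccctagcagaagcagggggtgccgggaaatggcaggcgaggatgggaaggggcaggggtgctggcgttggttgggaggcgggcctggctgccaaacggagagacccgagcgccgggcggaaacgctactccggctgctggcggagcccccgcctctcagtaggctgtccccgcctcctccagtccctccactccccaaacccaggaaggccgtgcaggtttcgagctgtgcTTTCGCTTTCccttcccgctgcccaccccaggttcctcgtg
Psmb10: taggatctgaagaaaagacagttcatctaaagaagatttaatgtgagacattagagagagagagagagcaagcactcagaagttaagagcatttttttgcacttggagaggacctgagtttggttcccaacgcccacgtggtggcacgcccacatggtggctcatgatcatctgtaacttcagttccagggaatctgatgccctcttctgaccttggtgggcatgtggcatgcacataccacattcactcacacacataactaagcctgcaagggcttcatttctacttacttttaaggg
The Psmb10 window held no match. The windows of Psmb9 and Psme2, which did not pass the test either and are not shown, held no match to an interferon motif. The Psmb8 match to the gamma-activated site lay at -97 to -89 and the Psme1 match to the response element at 10 to 19, counted from RefSeq's start, which for all 3 genes lies inside the GENCODE gene span. The whole Psmb8 and Psme1 windows lie inside that span, so they hold no sequence upstream of GENCODE's gene start. RefSeq's table held promoters for 40 of the 48 genes. Neither match overlapped another motif. The ISRE core was found in 1 of 5 immunoproteasome promoters, 4 of 35 other promoters of the 48 genes (Psmb3, Psmd4, Psmd9 and Psmg4) and 3.44% of all 32851 promoters in the table. TTCNNNGAA was found in 1 of 5 immunoproteasome promoters, 2 of 35 others (Psmd2 and Psmg1) and 8.3% of all promoters. A kappaB motif, GGG, any 2 bases and TTTCC, was found in 0 of 5 immunoproteasome promoters, 0 of 35 others and 1.63% of all. The core TGANNNNGC of the antioxidant response element, which is not marked above, was found in 3 of 5 immunoproteasome promoters, 19 of 35 others and 41.3% of all. A match describes letters in this window and no binding was measured.

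In LPS against untreated cells, 2 of the 5 immunoproteasome genes rose and none fell, at an adjusted p under 0.05. Psmb8, the inducible subunit that replaces Psmb5, rose 1.76-fold, and Psme1, the PA28 alpha subunit, rose 1.48-fold. Among the 43 other genes, 4 rose and 2 fell, and each of the 14 constitutive core subunits stayed short of the threshold. Of all genes tested, 32.8% were called in this comparison, 15.2% higher and 17.6% lower. Of the 48 proteasome genes 8 were called, a share below that background, and 5 of 48 reached a 1.5-fold difference (10.4%), against 42.9% of all genes. These shares were not tested against each other.

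Psmb8 had 189, 113 and 109 CPM in the LPS with octanal libraries, 211, 158 and 175 CPM in the LPS libraries, and 93.4, 111 and 103 CPM in the untreated libraries. The 3 LPS libraries lay above the 3 untreated ones, and 1 of the 3 octanal libraries lay among the LPS values. The log2 fold change in LPS against untreated was 0.82 (SE 0.213, adjusted p = 0.020 with edgeR's quasi-likelihood test and Benjamini-Hochberg adjustment over all genes, as for all gene p-values below). Leaving out LPS replicate 1 gave 0.68 for Psmb8 (adjusted p = 0.074), leaving out untreated replicate 1 gave 0.72 (adjusted p = 0.063), and leaving out LPS replicate 3 gave 0.82 (adjusted p = 0.050, just past the threshold).

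Psme1 had 139, 106 and 95.9 CPM in LPS with octanal, 172, 116 and 142 CPM in LPS, and 98.8, 93.4 and 98.9 CPM in untreated libraries. The untreated libraries lay within a narrow range below all 3 LPS libraries, and the octanal libraries reached into both. Its log2 fold change in LPS against untreated was 0.56 (SE 0.169, adjusted p = 0.033). The Psme1 call was lost in 6 of 9 fits that left out a library, with the smallest change without LPS replicate 1 (0.39, adjusted p = 0.13). Reads of Psme1 and the overlapping Emc9 could not be separated.

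Psmb9, the inducible subunit that replaces Psmb6, had 39.7, 24.1 and 22.1 CPM in LPS with octanal, 44.6, 31.8 and 32.8 CPM in LPS, and 22.7, 22.2 and 27.6 CPM in untreated libraries. Its LPS libraries lay above the untreated ones, but the difference did not pass (log2 fold change 0.59, SE 0.236, adjusted p = 0.083). Psmb10, which replaces Psmb7, had 49.7, 32.6 and 27.1 CPM in LPS with octanal, 49.9, 35.9 and 37.2 CPM in LPS, and 50.9, 32.7 and 29.5 CPM in untreated libraries. Replicate 1 was the highest library of each group for Psmb10 and the 3 groups overlapped, and the log2 fold change in LPS against untreated was 0.12 (SE 0.273, adjusted p = 0.77).

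Psme2, the PA28 beta subunit, had 169, 138 and 126 CPM in LPS with octanal, 163, 124 and 161 CPM in LPS, and 136, 98.7 and 104 CPM in untreated libraries. The LPS and untreated libraries overlapped and the log2 fold change was 0.40 (SE 0.167, adjusted p = 0.093). Psme2b, its copy, had 71.0, 56.3 and 57.4 CPM in LPS with octanal, 89.2, 81.6 and 75.3 CPM in LPS, and 45.6, 54.2 and 35.9 CPM in untreated libraries. Psme2b rose in LPS cells by 0.86 on the log2 scale (SE 0.161, adjusted p = 0.0059), with no overlap. Psme2 and Psme2b transcripts matched at 99.4% of 794 aligned bases, so the split of reads between them is uncertain. With their counts summed into 1 gene, a setting chosen after seeing the data, the pair rose by 0.55 on the log2 scale (adjusted p = 0.020), and 3 of 5 immunoproteasome genes were called.

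The immunoproteasome genes thus had a median log2 fold change of 0.56 in LPS against untreated, with all 5 positive. Psmb10, the smallest of them, turned negative without LPS replicate 1 (-0.063), without untreated replicate 3 (-0.037) and without both first treated libraries (-0.069). The 43 other genes had a median of -0.02 with 21 positive, and all genes tested a median of 0.01 with 50.7% positive. The LPS libraries lay wholly above the untreated libraries for 3 of the 5 (Psmb8, Psmb9 and Psme1). Over all 48 genes the groups did not overlap for 10 that were higher and 6 that were lower, against 51.5% of all genes tested, 26.7% higher and 24.8% lower. Cell type markers moved with the same contrast: in LPS against untreated, 9 of 10 neutrophil, 8 of 10 macrophage and 5 of 10 classical monocyte markers fell, and 9 of 9 T cell, 3 of 8 NK cell and 1 of 10 classical monocyte markers rose. Of the 8 B cell markers 1 rose, and of the 8 dendritic cell markers 1 rose and 1 fell. Whether cells of these kinds bear on the immunoproteasome levels was not tested.

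**Figure D1:**
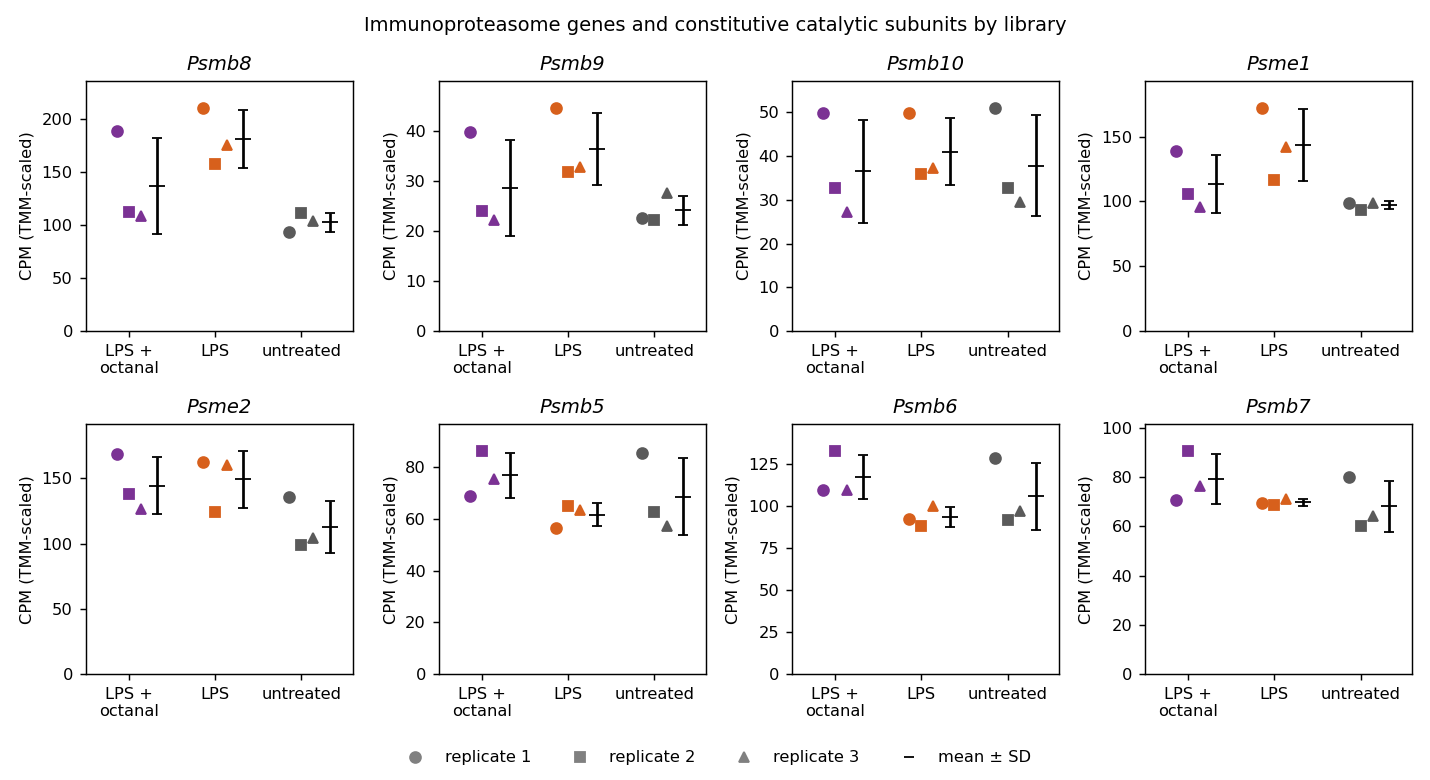
Levels of the 5 immunoproteasome genes and of the 3 constitutive catalytic subunits in CPM, from 0 upward, with 1 point per library (circle, square and triangle for replicates 1, 2 and 3) and the mean ± SD of 3 libraries beside each group. Psmb8, Psmb9 and Psme1 have all LPS points above the untreated points, whereas the points of Psmb10 and Psmb7 overlap in all groups.

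The constitutive catalytic subunits are the ones that the inducible subunits displace. Psmb5, the chymotrypsin-like subunit, had 68.6, 86.0 and 75.4 CPM in LPS with octanal, 56.5, 64.9 and 63.2 CPM in LPS, and 85.4, 62.7 and 57.2 CPM in untreated libraries. Psmb6, the caspase-like subunit, had 109.7, 133 and 109.8 CPM in LPS with octanal, 92.6, 88.4 and 100.1 CPM in LPS, and 129, 91.6 and 97.1 CPM in untreated libraries. For both, LPS and untreated libraries overlapped and all 3 octanal libraries lay above all 3 LPS libraries. Psmb7, the trypsin-like subunit, had 70.9, 90.6 and 76.2 CPM in LPS with octanal, 69.4, 68.6 and 71.3 CPM in LPS, and 80.0, 60.3 and 64.2 CPM in untreated libraries. Its 3 LPS values were close together and the groups overlapped. The log2 fold changes in LPS against untreated were -0.15 (SE 0.157, adjusted p = 0.48) for Psmb5, -0.18 (SE 0.142, adjusted p = 0.36) for Psmb6 and 0.03 (SE 0.130, adjusted p = 0.87) for Psmb7.

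The ratio of each inducible subunit to the one it replaces was taken in FPKM within each library. The Psmb8 to Psmb5 ratio was 1.51, 0.720 and 0.791 in LPS with octanal, 2.05, 1.34 and 1.53 in LPS, and 0.604, 0.978 and 0.997 in untreated libraries. Psmb8 was above Psmb5 per length in all 3 LPS libraries, in 1 octanal library and in no untreated library. The Psmb9 to Psmb6 ratio was 0.240, 0.114 and 0.131 in LPS with octanal, 0.320, 0.244 and 0.223 in LPS, and 0.112, 0.155 and 0.181 in untreated libraries. The Psmb10 to Psmb7 ratio was 0.620, 0.319 and 0.314 in LPS with octanal, 0.636, 0.463 and 0.461 in LPS, and 0.563, 0.480 and 0.407 in untreated libraries. Psmb9 and Psmb10 thus stayed below their constitutive partners per length in all 9 libraries.

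The Psmb8 to Psmb5 ratio averaged 1.64 ± 0.368 in LPS and 0.860 ± 0.222 in untreated libraries (SD, n = 3 each), and that of Psmb9 to Psmb6 averaged 0.262 ± 0.0509 in LPS and 0.149 ± 0.0349 in untreated libraries. For both, every LPS library was above every untreated one, with log2 differences of 0.94 and 0.82 and an exact permutation p of 0.1 each (two-sided, 0.45 after adjustment over 9 ratio tests), which is the smallest p that this permutation test allows with 3 against 3, so it could not reach the threshold. For Psmb10 to Psmb7 the means were 0.520 ± 0.101 in LPS and 0.483 ± 0.0782 in untreated libraries, a log2 difference of 0.10 (exact permutation p = 0.7, adjusted p = 0.9). Between LPS with octanal and LPS libraries, the log2 differences were -0.76 for Psmb8 to Psmb5 and -0.76 for Psmb9 to Psmb6 (exact permutation p = 0.2 each, adjusted p = 0.45), and -0.38 for Psmb10 to Psmb7 (exact permutation p = 0.3, adjusted p = 0.54). Between LPS with octanal and untreated libraries they were 0.18, 0.07 and -0.28 in the same order of ratios (exact permutation p = 0.8, 0.9 and 0.5, adjusted p = 0.9, 0.9 and 0.75). The first 2 of these turned negative without octanal replicate 1, at -0.15 and -0.26, and without untreated replicate 1, at -0.053 and -0.13.

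**Figure D2:**
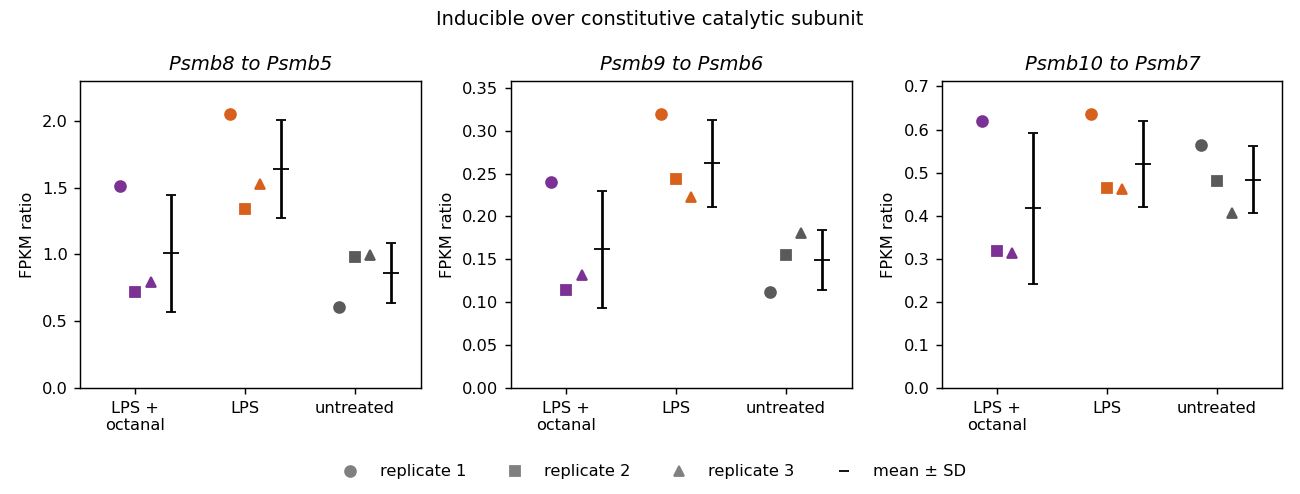
Ratio of each inducible catalytic subunit to the constitutive subunit it replaces, in FPKM over FPKM on an axis from 0, with 1 point per library and the mean ± SD of 3 libraries. The Psmb8 to Psmb5 ratio is 1.34 or more in the LPS libraries and 0.997 or less in the untreated ones, and replicate 1 is the highest octanal point in each panel.

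Of the constitutive core, 0 of 7 alpha subunits, 0 of 4 structural beta subunits and 0 of 3 catalytic beta subunits passed in LPS against untreated. At an unadjusted p under 0.05 there were none either, and DESeq2 and limma-voom called 0 of these 14. Their log2 fold changes lay between -0.18 (Psmb6) and 0.23 (Psma3), with a median of 0.03. The alpha subunit gene Psma3 had the lowest adjusted p among them (0.13). Under log2(FPKM + 0.1), where the median of all genes was 0.12, the median of the 14 was 0.14 and Psma3 alone was called (0.33, adjusted p = 0.030).

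In the 19S cap, 3 of 11 non-ATPase subunits rose and 2 fell in LPS against untreated, and 0 of 6 ATPases were called. Over all genes tested 32.8% were called, 15.2% higher and 17.6% lower. These counts are thus no result about the cap as a whole. Psmd8, a lid subunit, had 186, 232 and 197 CPM in LPS with octanal, 134, 163 and 155 CPM in LPS, and 277, 225 and 254 CPM in untreated libraries. Psmd8 fell in LPS cells by 0.74 on the log2 scale (SE 0.126, adjusted p = 0.0041), and this call held in all 9 fits that left out a library. Its octanal libraries lay wholly above the LPS libraries and overlapped the untreated ones. Psmd13, another lid subunit, had 98.9, 108 and 109 CPM in LPS with octanal, 81.4, 89.3 and 90.8 CPM in LPS, and 126, 95.3 and 114 CPM in untreated libraries. Psmd13 fell in LPS cells by 0.36 (SE 0.112, adjusted p = 0.038), a call lost in 7 of 9 such fits (adjusted p = 0.13 without LPS replicate 1), and Psmd13 overlaps Sirt3 on the other strand.

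3 other lid subunits rose in LPS cells. Psmd11 had 124, 134 and 133 CPM in LPS with octanal, 123, 118 and 130.3 CPM in LPS, and 97.0, 97.0 and 99.1 CPM in untreated libraries. Psmd3 had 115, 140.4 and 128 CPM in LPS with octanal, 113, 115 and 119.8 CPM in LPS, and 95.6, 92.4 and 83.5 CPM in untreated libraries. Psmd7 had 111, 128 and 120.0 CPM in LPS with octanal, 107, 103 and 111 CPM in LPS, and 93.5, 85.0 and 81.1 CPM in untreated libraries. For all 3, every LPS and every octanal library was above every untreated one. In LPS against untreated the log2 fold changes were 0.34 for Psmd11 (SE 0.0781, adjusted p = 0.013), 0.36 for Psmd3 (SE 0.0981, adjusted p = 0.024) and 0.30 for Psmd7 (SE 0.0913, adjusted p = 0.033). Each of these calls was lost when any 1 LPS library was left out, with adjusted p up to 0.089 for Psmd11, 0.11 for Psmd3 and 0.15 for Psmd7. Over all 9 fits that left out a library, the call was lost in 3 for Psmd11, 6 for Psmd3 and 7 for Psmd7.

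The other 6 of the 11 non-ATPase subunits of the cap and all 6 of its ATPases did not pass in this comparison, and 2 of the 6 ATPases had an unadjusted p under 0.05, both higher. The ATPase genes Psmc2 and Psmc5 came nearest, at 0.22 each (adjusted p = 0.077 and 0.076). Of the 7 assembly chaperones, none passed and 1 had an unadjusted p under 0.05, while DESeq2 and limma-voom called 0 of the 6 ATPases and 0 of the 7 chaperones. Among the chaperones, Psmd9 had the largest difference, -0.37 (adjusted p = 0.10), with 12.9, 17.1 and 12.2 CPM in LPS with octanal, 13.6, 15.5 and 14.2 CPM in LPS, and 20.5, 17.4 and 17.8 CPM in untreated libraries. The activators Psme3, the nuclear PA28 gamma, and Psme4, known as PA200, stood at -0.04 and -0.13 (adjusted p = 0.78 and 0.35). Psma8 was near its detection limit, with 0.288, 0.671 and 0.494 CPM in LPS with octanal, 0.309, 0 and 0.802 CPM in LPS, and 3.04, 1.24 and 1.03 CPM in untreated libraries, and did not pass (-2.24, SE 0.969, adjusted p = 0.11). Psmc3ip did not pass either (-0.21, adjusted p = 0.63).

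**Figure D3:**
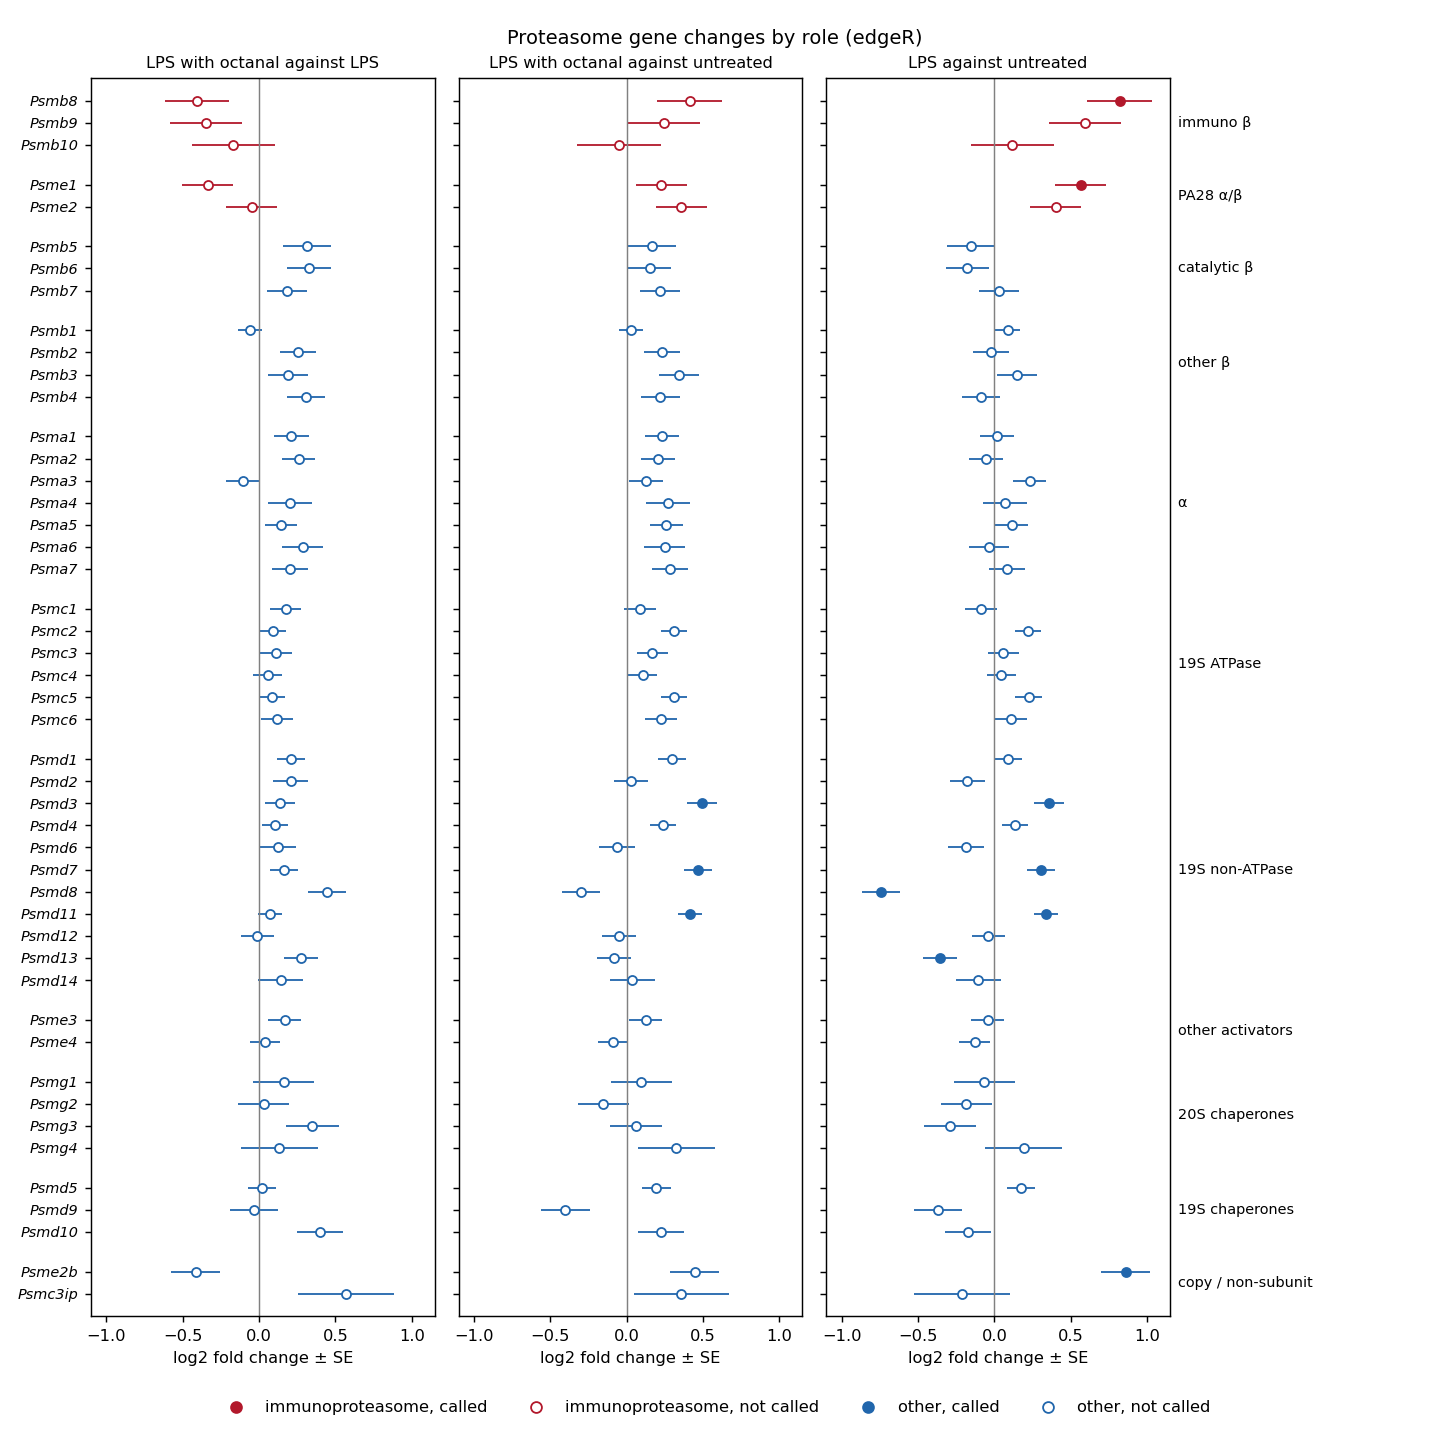
Log2 fold change ± SE from the edgeR fit for 47 of the 48 genes, grouped by role, in LPS with octanal against LPS, LPS with octanal against untreated and LPS against untreated (filled symbols passed an adjusted p of 0.05, and Psma8 is left off for its large SE). The 5 immunoproteasome genes lie left of 0 in the first panel and right of 0 in the last, and Psmd3, Psmd7 and Psmd11 are filled in both comparisons with untreated cells.

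In LPS with octanal against LPS, edgeR called 0 of 48 proteasome genes and 0 of 15447 genes (0.0%), with a lowest adjusted p of 0.051 over all genes. At an unadjusted p under 0.05 there were 6 proteasome genes higher and 1 lower, against 2108 higher and 1342 lower genes in all. limma-voom called none, and DESeq2 called 1394 genes higher and 406 lower, of which 1 was a proteasome gene. That gene was Psmd8, at 0.48 on the log2 scale (DESeq2 adjusted p = 0.017), and edgeR gave it 0.44 (SE 0.126, adjusted p = 0.10). In a fit of the 6 libraries of both groups, edgeR called Psmd10, a cap assembly chaperone also known as gankyrin, at 0.43 (adjusted p = 0.042). Psmd10 had 39.2, 42.6 and 41.0 CPM in LPS with octanal, 29.2, 31.2 and 32.9 CPM in LPS, and 42.7, 27.8 and 34.4 CPM in untreated libraries, so its octanal libraries lay above all LPS libraries and within the untreated range.

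All 5 immunoproteasome genes had negative log2 fold changes in LPS with octanal against LPS, and none passed, also none at an unadjusted p under 0.05 and none with DESeq2 or limma-voom. They were -0.41 for Psmb8 (SE 0.212, adjusted p = 0.29), -0.35 for Psmb9 (SE 0.235, adjusted p = 0.40), -0.34 for Psme1 (SE 0.169, adjusted p = 0.27), -0.17 for Psmb10 (SE 0.273, adjusted p = 0.74) and -0.05 for Psme2 (SE 0.167, adjusted p = 0.89). For each of them the octanal libraries overlapped the LPS libraries. Octanal replicate 1 stood apart from the other octanal libraries, at 189 CPM for Psmb8 against 113 and 109 CPM. Without it, Psmb8 was at -0.67 (adjusted p = 0.047) and was called. The values of Psmb10 and Psme2 turned positive without LPS replicate 1 (0.014 and 0.040) and without octanal replicate 3 (0.021 and 0.058), and that of Psme2 also without LPS replicate 3 (0.031).

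Of the 43 other genes, 38 had positive log2 fold changes in LPS with octanal against LPS, with a median of 0.16, while 45.4% of all genes were positive, with a median of -0.05. Under log2(FPKM + 0.1), where the median of all genes was -0.14, 31 of 43 were positive with a median of 0.06, and the 5 immunoproteasome genes stayed negative with a median of -0.43. None of the 48 reached a 1.5-fold difference, against 26.5% of all genes. The octanal libraries lay wholly above the LPS libraries for 13 of the 48 and wholly below for 2, Psmb1 and Psme2b, against 38.1% of all genes in either direction, 18.3% higher and 19.9% lower. The members at an unadjusted p under 0.05 were Psmd8, Psmd10, Psmd13, Psmb4, Psma2 and Psmb6, which were higher, and Psme2b, which was lower. Psmb4, a structural beta subunit, was at 0.31 (adjusted p = 0.20), Psma2, an alpha subunit, at 0.26 (adjusted p = 0.21), Psmb6 at 0.33 (adjusted p = 0.22) and Psmd13 at 0.27 (adjusted p = 0.20). Cell type markers differed here too, though edgeR called none. All 10 neutrophil markers were positive (median 2.11), and all 9 T cell and 8 B cell markers were negative (medians -0.65 and -0.77). Of the others, 7 of 10 classical monocyte, 4 of 10 macrophage, 3 of 8 NK cell and 4 of 8 dendritic cell markers were positive. Their bearing on the proteasome genes was not tested.

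Octanal-treated cells, set against untreated cells, had 3 of 48 proteasome genes that rose and none that fell, against 8.67% of all genes called, 2.63% higher and 6.03% lower. The 3 were the lid subunits Psmd3, at 0.49 on the log2 scale (SE 0.0982, adjusted p = 0.020), Psmd7, with 0.47 (SE 0.0914, adjusted p = 0.020), and Psmd11, with 0.41 (SE 0.0781, adjusted p = 0.017). They also rose in LPS against untreated, a comparison that shares the 3 untreated libraries. Without octanal replicate 2 their adjusted p were 0.091, 0.092 and 0.097, and without octanal replicate 3 they were 0.062, 0.062 and 0.071, in the order named. The Psmd11 call was also lost without untreated replicate 1 (adjusted p = 0.053). In a fit of the 6 libraries of both groups 0 of 48 were called, and the share of all genes called in that fit is not given here. DESeq2 called 7 of the 48, all higher, against 1033 higher and 1765 lower of all 15447 genes.

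Set against untreated cells, octanal-treated cells had no immunoproteasome gene that passed with edgeR, DESeq2 or limma-voom. Of the 5 genes, 0 had an unadjusted p under 0.05 with edgeR or limma-voom, and 1, higher, had it with DESeq2. Their log2 fold changes were 0.41 for Psmb8 (SE 0.213, adjusted p = 0.24), 0.36 for Psme2 (SE 0.167, adjusted p = 0.21), 0.25 for Psmb9 (SE 0.236, adjusted p = 0.53), 0.23 for Psme1 (SE 0.169, adjusted p = 0.41) and -0.05 for Psmb10 (SE 0.273, adjusted p = 0.93). Without both LPS replicate 1 and octanal replicate 1, Psmb8 was at 0.12 and Psmb9 at -0.05. All 14 constitutive core subunits had positive values, against 49.4% of all genes, with a median of 0.23, but 0 were called and 3 had an unadjusted p under 0.05 (Psmb3, Psma5 and Psma7). DESeq2 and limma-voom also called 0 of the 14. Psmc2 and Psmc5 were at 0.31 each (adjusted p = 0.058 and 0.060), and Psmd9 was at -0.40 (adjusted p = 0.14). Over all 48 genes, the octanal libraries lay wholly above the untreated ones for 11 and wholly below for 2 (Psma8 and Psmd9), against 29.8% of all genes, 13.5% higher and 16.3% lower.

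The spread between replicates differed between the sets. The median SD of log2 CPM in the LPS with octanal group was 0.45 over the 5 immunoproteasome genes, 0.16 over the 14 constitutive core subunits, 0.12 over the 17 cap subunits and 0.23 over all genes. In the LPS group these were 0.26, 0.08, 0.07 and 0.17, and in the untreated group 0.17, 0.20, 0.10 and 0.32. The mean centred log2 CPM of the immunoproteasome genes was 0.39, -0.16 and -0.30 in LPS with octanal, 0.51, 0.04 and 0.22 in LPS, and -0.13, -0.32 and -0.27 in untreated libraries. Replicate 1 was the highest in every group.

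Interferon-stimulated genes were high in the same treated libraries. The summed level of 20 such genes, a list that holds none of the 48, was 1109, 475 and 496 CPM in LPS with octanal, 1603, 560 and 702 CPM in LPS, and 212, 344 and 241 CPM in untreated libraries. Replicate 1 had the highest sum in both treated groups and the lowest in the untreated group. Of the 20, 13 were called higher in LPS against untreated, 0 in LPS with octanal against LPS (0 at an unadjusted p under 0.05, and 0 by DESeq2 and limma-voom), and 4 higher in LPS with octanal against untreated. Of all genes tested, 15.2%, 0.0% and 2.63% were called higher in the same order. Without both first treated libraries, 1 of 5 immunoproteasome genes and 3 of 48 proteasome genes were called in LPS against untreated, with Psmb8 at 0.68 (adjusted p = 0.016) and Psme1 at 0.39 (adjusted p = 0.072). The share of all genes called in that smaller fit is not given here, so these counts are no result about the proteasome genes. The part of an interferon response in the immunoproteasome levels was not tested.

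**Figure D4:**
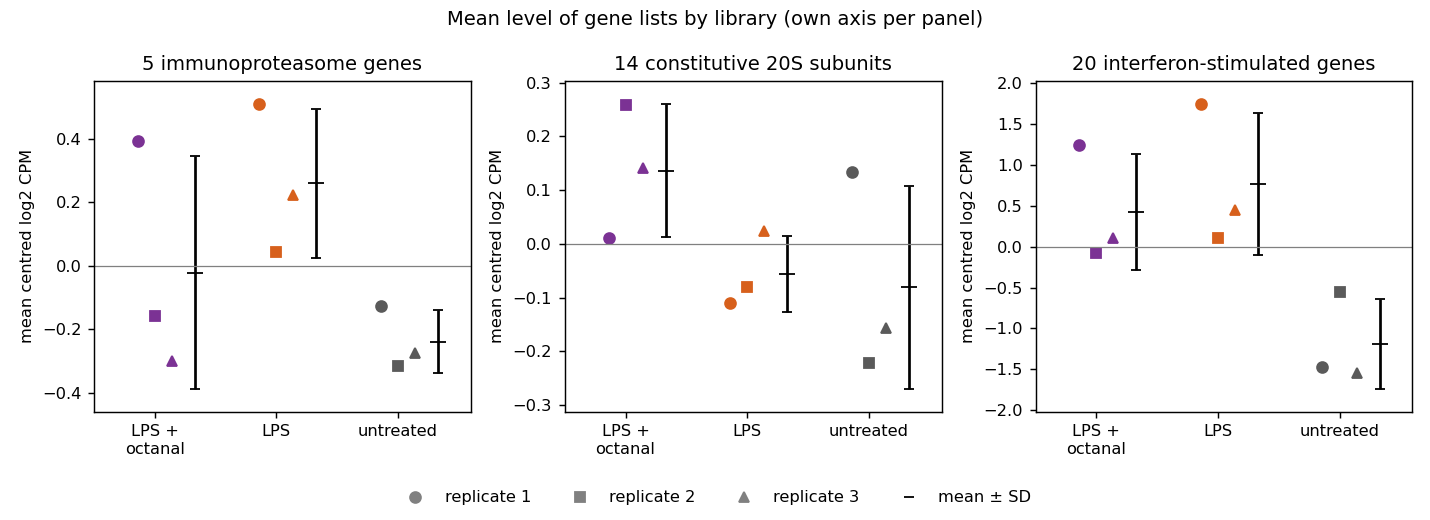
Mean centred log2 CPM of the immunoproteasome genes, the constitutive core subunits and the interferon-stimulated genes by library, with 1 point per library, the mean ± SD of 3 libraries beside each group, and an axis of its own in each panel. LPS replicate 1 (0.51 and 1.75) and octanal replicate 1 (0.39 and 1.24) are the highest 2 points in the first and last panels.

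Genes that work with the immunoproteasome in antigen presentation moved in the same comparison. Of 8 genes of class I presentation and of immunoproteasome regulation, 5 rose and none fell in LPS against untreated, where 15.2% of all genes rose, and edgeR called 0 in either comparison of LPS with octanal. Against LPS, 0 of 8 had an unadjusted p under 0.05 and the other tools called 0, and against untreated 3 did and DESeq2 and limma-voom called 1 each. Tap1, a subunit of the peptide transporter that overlaps Psmb9, had 149, 95.9 and 89.9 CPM in LPS with octanal, 183, 118 and 141 CPM in LPS, and 51.4, 83.1 and 83.7 CPM in untreated libraries. Its LPS libraries lay above all untreated ones, and the difference was 1.02 on the log2 scale (SE 0.261, adjusted p = 0.019). Nlrc5, an activator of class I genes, rose by 0.89 (adjusted p = 0.013), Tap2, the partner of Tap1, by 0.63 (adjusted p = 0.036), Irf1, a transcription factor of the interferon response, by 0.57 (adjusted p = 0.037), and B2m, the light chain of class I, by 0.53 (adjusted p = 0.014).

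Of 25 factors that bind, modify or regulate the proteasome, 4 rose and 4 fell in LPS against untreated. These 8 of 25 are near the background of 32.8% of all genes called, 15.2% higher and 17.6% lower, so the count is no result about these factors as a group. Nfe2l1, the transcription factor that induces proteasome genes when the proteasome is inhibited, had 282, 301 and 323 CPM in LPS with octanal, 222, 238 and 243 CPM in LPS, and 173, 168 and 178 CPM in untreated libraries. The 3 groups did not overlap. Nfe2l1 rose by 0.44 in LPS against untreated (SE 0.0900, adjusted p = 0.0086) and by 0.80 (SE 0.0904, adjusted p = 0.0026) when octanal-treated cells were set against untreated ones, and stood at 0.37 (SE 0.0899, adjusted p = 0.076) between octanal-treated and LPS cells. The ubiquitin receptor of the cap, Adrm1, rose by 0.39 (adjusted p = 0.019), the shuttle factor Ubqln4 by 0.52 (adjusted p = 0.0061) and the segregase gene Vcp by 0.34 (adjusted p = 0.042) in LPS against untreated.

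Sem1, a small lid subunit whose symbol lies outside the Psm pattern, had 59.6, 71.5 and 78.7 CPM in LPS with octanal, 36.3, 39.2 and 43.8 CPM in LPS, and 86.8, 61.6 and 74.4 CPM in untreated libraries. Its LPS libraries lay below both other groups. Sem1 fell by 0.90 on the log2 scale in LPS against untreated (SE 0.153, adjusted p = 0.0040) and stood at 0.81 (SE 0.153, adjusted p = 0.057) between octanal-treated and LPS cells. The other 3 that fell in LPS against untreated were Zfand2a, a stress-induced proteasome-binding factor, by 1.02 (adjusted p = 0.0039), Midn, a carrier of substrates to the proteasome, by 0.70 (adjusted p = 0.0093), and Uchl5, a deubiquitinase of the cap, by 0.45 (adjusted p = 0.0083). Between octanal-treated and LPS cells edgeR and limma-voom called none of the 25 and DESeq2 called 2, and 3 had an unadjusted p under 0.05. Against untreated cells, octanal-treated cells had rises that included Nfe2l1, Adrm1 (0.53, adjusted p = 0.018) and Ubqln4 (0.39, adjusted p = 0.042), and falls of Uchl5 (-0.48, adjusted p = 0.018), Zfand2a (-0.67, adjusted p = 0.046) and Midn (-0.58, adjusted p = 0.044).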

How the data were processed

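The authors deposited whole-number counts per gene and library without normalization, and FPKM values, which scale fragment counts by gene length and library size, in the same table, per the file headers. RNA was extracted with TRIzol and made into mRNA libraries, per the labels' protocols. The submitters' processing notes name GRCm38 as the build, and neither aligner nor counter is given in the sources used here. The table held 22035 genes with Ensembl identifiers and 4735 unannotated loci, and 10 lines of text without values were left out.

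The count test was edgeR 4.0.16 in R 4.3.3, with TMM factors (0.923 to 1.07), filterByExpr by group and the quasi-likelihood fit of all 9 libraries together, 1 coefficient per group. A gene was called at an adjusted p under 0.05 (Benjamini-Hochberg over 15447 genes). CPM are on TMM-scaled totals, ratios of subunits were taken from the deposited FPKM, and mean centred values subtract each gene's mean log2 CPM. Subunit ratios were compared with a two-sided exact permutation test on the log2 scale. Chi-square over degrees of freedom between replicates was 46.5 to 154, so none was counted as a repeat of another. Alternatives were DESeq2 1.42.0, voom and trend fits of limma 3.58.1 on counts and on log2(FPKM + 0.1) or log2(FPKM + 1), other filters, subsets of libraries and a replicate block. The fit was tested on simulated counts with 100 rises of 2-fold and 100 of 4-fold per comparison. It recovered 29 and 83 of them in LPS against untreated and 35 and 68 in LPS with octanal against LPS. In LPS with octanal against untreated it recovered 40 and 70. False calls numbered 6, 3 and 11 in the same order. Only 200 genes were changed per simulation, drawn from all genes tested, whereas 32.8% of all genes were called in LPS against untreated. The median SD of log2 CPM in the LPS group was 0.17 over all genes and 0.08 over the 48. These recovery rates thus cannot be carried over to the proteasome genes. A gene that did not pass may still have changed.

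The members, the gene lists and the comparisons were chosen with earlier results of these data known. The rule for named genes took the 5 immunoproteasome genes, the 3 constitutive catalytic subunits, and up to 4 genes of lowest unadjusted p from each other role and list in a comparison. Other called genes, such as Psmd13 and B2m, and those that stood out in a count or did not overlap were named after their values were seen. Some genes of the lists are counted but not reported by name here.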

Additional observations from a re-analysis of the deposited data

How the results depend on the processing

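In LPS against untreated, 8 of 48 proteasome genes, 2 of 5 immunoproteasome genes and 13 of 33 other pathway genes were called. Over all genes tested the share called was 32.8%, and the shares were not tested against each other. Without a filter on low counts 5 proteasome genes were called. Without LPS replicate 1 and octanal replicate 1 together there were 3 proteasome genes, 1 immunoproteasome gene and 8 other pathway genes. Leaving out 1 library at a time gave 2 to 9, 0 to 3 and 6 to 12. In LPS with octanal against LPS, the calls were 0, 0 and 0. A proteasome gene, 1 in each case, was called in a fit of the 6 libraries of both groups (Psmd10) and by DESeq2 (Psmd8). Other pathway genes called were 1 without the filter, 1 at a minimum of 10 CPM, 1 without unannotated loci, 2 in the fit of 6 libraries and 2 by DESeq2. Leaving out 1 library gave 0 to 1 in each set. In LPS with octanal against untreated, 3 proteasome genes and 7 other pathway genes were called, against 8.67% of all genes tested. The counts were 0 and 1 in the fit of 6 libraries and 1 and 2 without both first treated libraries. DESeq2 called 7 proteasome genes, against 1033 higher and 1765 lower of all 15447 genes. Without the filter, 3 other pathway genes were called. Leaving out 1 library gave 0 to 4 proteasome genes and 1 to 6 other pathway genes. Fewer libraries enter the fits of 6 libraries and those that left libraries out, and the share of all genes called in them is not given here. The fits with another filter, without unannotated loci or by DESeq2 used all 9. The cause of the changed counts was not tested.

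Whether replicate numbers mark a shared animal or day is not given. Same-numbered libraries correlated at -0.078 to 0.14 in their deviations from the group means over the genes tested. The highest value was between the first LPS and the first octanal library. Such a correlation cannot exclude a pairing. With the number as a replicate block, 7 proteasome genes and 3 immunoproteasome genes were called in LPS against untreated, none in LPS with octanal against LPS, and 3 proteasome genes but 4 other pathway genes in LPS with octanal against untreated. Among immunoproteasome genes, the block added Psme2 in LPS against untreated (0.41, edgeR adjusted p = 0.041).

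None of the differences whose sign changed had passed, and among them Cmpk2 in LPS with octanal against LPS was large, at -0.89. With log2(FPKM + 0.1) and log2(FPKM + 1), in LPS against untreated, the values were Psma2 0.058, Psmb2 0.083, Psmb4 0.027, Psmc1 0.026, Psme3 0.061 and Psmg1 0.071, and Psma2 0.056, Psmb2 0.082, Psmb4 0.026, Psmc1 0.025, Psme3 0.060 and Psmg1 0.062. Between LPS with octanal and LPS they were Psmc2 -0.0089, Psmd5 -0.078, Psme4 -0.052 and Psmg2 -0.064, and Psmc2 -0.0087, Psmd5 -0.073, Psme4 -0.050 and Psmg2 -0.061. Psmd9 was at 0.00022 with DESeq2 size factors and 0.0016 by DESeq2 in that comparison, and Psmb1 at -0.0074 at a minimum of 10 CPM in LPS with octanal against untreated. Without both first treated libraries, the values were Psmb10 -0.069 in LPS against untreated, Cmpk2 0.082 and Psmd9 0.015 in LPS with octanal against LPS, and Psmb9 -0.051 in LPS with octanal against untreated.

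Leaving out 1 library at a time, log2 fold changes that crossed 0 spanned, in LPS against untreated, Psma2 -0.18 to 0.0066, Psma7 -0.028 to 0.17, Psmb10 -0.063 to 0.36, Psmb2 -0.10 to 0.0094, Psmb4 -0.18 to 0.0024, Psmb5 -0.27 to 0.0049, Psmb7 -0.077 to 0.13 and Psmg1 -0.23 to 0.13. Between LPS with octanal and LPS they spanned Cmpk2 -1.20 to 0.22, Psma8 -0.15 to 1.61, Psmb10 -0.42 to 0.021, Psmd9 -0.18 to 0.078, Psme2 -0.14 to 0.058 and Psmg2 -0.048 to 0.14, and in LPS with octanal against untreated Psmb1 -0.026 to 0.072, Psmb10 -0.32 to 0.22, Psmb9 -0.052 to 0.39, Psmg1 -0.033 to 0.32 and Psmg3 -0.021 to 0.20. Log2 differences of the subunit ratios spanned -0.052 to 0.22 for Psmb10 to Psmb7 in LPS against untreated, and -0.15 to 0.38 for Psmb8 to Psmb5 and -0.26 to 0.28 for Psmb9 to Psmb6 in LPS with octanal against untreated. Depth was lowest for Psma8, with 0 to 113 counts per library, whereas Psmb9 had at least 672 counts in every library.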
